A study of Homo sapiens with 4 samples.

Results

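Vimentin and 8 keratins were examined in HCT116 colorectal cancer cells whose β-catenin gene, *CTNNB1*, is either mutant or wild type. The 9 genes were *VIM*, *KRT7*, *KRT8*, *KRT10*, *KRT18*, *KRT19*, *KRT20*, *KRT23* and *KRT80*, taken by name from the 20046 genes named on the array, and 13 of its 47321 probes measure them. HCT116-MT is a subline that keeps only the mutant allele (Ser45 del), and HCT116-WT is a subline that keeps only the wild-type allele. In each line the other allele was disrupted in the parental HCT116 strain. Both lines were grown in RPMI medium with fetal bovine serum and received no treatment. Total RNA of 2 HCT116-MT and 2 HCT116-WT samples was hybridized to HumanHT-12 v4 BeadChips, each sample on an array of its own. Each allele is represented by a single line, so the allele and any other difference between the 2 lines cannot be told apart. Whether the replicates were grown as separate cultures is not given, so the p-values speak for these samples only, and the spread between them may be technical. The fit used here (limma) also draws the spread of each gene toward that of all genes. This enters its p-values, SE and intervals.

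Intermediate filaments are the stress-bearing part of the cytoskeleton. Vimentin is a type III protein that assembles with itself and is typical of mesenchymal cells, and its appearance in carcinoma cells is a widely used mark of epithelial-to-mesenchymal transition (EMT). Keratins assemble only as pairs of an acidic (type I) and a basic (type II) chain, and are typical of epithelial cells. *KRT8* (type II) and *KRT18* (type I) form the basic filament of simple epithelia such as the colon, where *KRT19* and *KRT20* are also found. *KRT7* is a type II keratin of ductal epithelia, *KRT10* a type I keratin best known from the upper epidermis, *KRT23* a type I keratin and *KRT80* a type II keratin.

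The sequence upstream of the start site was at hand for 4 of the 9 genes (*VIM*, *KRT8*, *KRT10* and *KRT20*), from RefSeq on GRCh38.p14. Each sequence lies before a single annotated start of its gene, and whether the transcripts measured by the probes begin there was not tested. The 250 bases before the start of *VIM* (chr10:17227991-17228240, plus strand), *KRT8* (chr12:52926470-52926719, minus strand) and *KRT10* (chr17:40822615-40822864, minus strand) are printed 5′ to 3′, because these 3 genes were detected on all arrays and run from the largest difference between the lines to almost none. Capitals mark matches on either strand to 4 motifs. These are CACCTG (the E-box bound by ZEB and SNAI repressors) and CTTTGA (a form of the TCF/LEF core, to which β-catenin is recruited). The others are TATAAA (the TATA box) and GGGCGG (the GC box).
VIM: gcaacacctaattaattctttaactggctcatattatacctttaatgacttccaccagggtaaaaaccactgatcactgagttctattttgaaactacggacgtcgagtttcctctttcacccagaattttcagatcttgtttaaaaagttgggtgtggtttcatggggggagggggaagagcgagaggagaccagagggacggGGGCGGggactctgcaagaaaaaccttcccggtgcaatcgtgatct
KRT8: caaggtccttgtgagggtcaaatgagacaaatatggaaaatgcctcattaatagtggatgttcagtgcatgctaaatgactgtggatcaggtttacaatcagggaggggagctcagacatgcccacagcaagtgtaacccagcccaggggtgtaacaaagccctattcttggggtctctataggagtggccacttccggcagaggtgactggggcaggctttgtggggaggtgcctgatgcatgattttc
KRT10: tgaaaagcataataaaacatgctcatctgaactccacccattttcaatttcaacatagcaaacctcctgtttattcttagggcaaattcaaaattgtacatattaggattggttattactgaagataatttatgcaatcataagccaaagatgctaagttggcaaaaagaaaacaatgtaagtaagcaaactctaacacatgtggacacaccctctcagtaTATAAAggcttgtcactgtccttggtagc
The *VIM* window held a GC box whose first base lies 46 bases before the start, as 42.6% of 35116 such windows hold at least 1. The *KRT10* window held a TATA box whose first base lies 29 bases before the start, a motif found in 10.7% of windows. The letters CACCTG and CTTTGA, present in 17.5% and 11.2% of all windows, were in none of the 4 windows. Other forms of the TCF/LEF core were not searched for, so a window without CTTTGA may still hold a TCF/LEF site.

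*CTNNB1* itself was measured at normalized intensities of 2833 and 2196 in HCT116-MT, against 2143 and 1949 in HCT116-WT (log2 fold change 0.29 ± 0.22 SE, limma adjusted p 0.757). The array cannot show which allele the RNA came from. Detected probes, meaning those with a detection p-value under 0.05 against the negative controls of the array, made up 41.4% to 42.5% of probes on the 4 arrays. Over 20579 probes the correlation was r = 0.980 within HCT116-MT, r = 0.965 within HCT116-WT and r = 0.964 to 0.969 between the lines. Of 7 colon epithelial markers on the array, *EPCAM*, *CDX2* and *CDH1* were detected and 4 were detected on no array, including *VIL1* and *CDH17*. The summed level of these markers was 14500 and 19982 in HCT116-MT, against 40897 and 26015 in HCT116-WT. *EPCAM* was by far the brightest of them. The log2 fold changes were -0.92 for *EPCAM*, -1.91 for *CDH1* and 0.19 for *CDX2*, which was thus not lower. Markers of fibroblasts, in which vimentin is abundant, summed to 1865 and 1954 in HCT116-MT, against 1879 and 1943 in HCT116-WT. Of these 9 markers 6 were detected on no array. Each sum adds every probe of the listed genes, detected or not, so the fibroblast and endothelial sums hold much background. Endothelial markers summed to 686 and 671 in HCT116-MT, against 729.7 and 690.1 in HCT116-WT, with 4 of 5 detected on no array, and leukocyte markers to 2272 and 3009, against 4190.4 and 6293, with 2 of 5 detected on no array. None of these marker sums of other cell types was higher on both HCT116-MT arrays than on both HCT116-WT arrays, and the part of the colon epithelial and leukocyte sums in the results on filaments was not tested.

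*VIM* was many-fold higher in HCT116-MT. The 4 detected keratins had log2 fold changes between -0.94 and -0.04, and only *KRT80* was called lower, which did not hold under every setting. As RNA was taken from whole cultures, more cells with a transcript and more transcript per cell cannot be told apart. Of the 9 genes, 5 had a probe detected on at least 2 of the 4 arrays (*VIM*, *KRT8*, *KRT10*, *KRT19* and *KRT80*) and were compared with the other genes. The counts of gene lists below take a gene as detected by this same rule of at least 2 arrays. At the thresholds of the study (p under 0.05 before adjustment and more than 1.5-fold), *VIM* rose and *KRT80* fell, whereas 3.46% of 11875 genes were called higher and 3.85% lower, or 7.31% in all. Of their 7 compared probes, both of *VIM* were called higher (3.15% of 20579 probes) and 1 of *KRT80* lower (3.10%). None of the 5 had a limma adjusted p under 0.05, as 0.0674% of all genes did, and at an unadjusted p under 0.05 the count was 2, against 9.28% of all genes. Both arrays of HCT116-MT were above both of HCT116-WT for 1 of the 5 (20.7% of all genes) and below them for 3 (19.1% of all genes), *KRT8*, *KRT19* and *KRT80*.

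**Figure D1:**
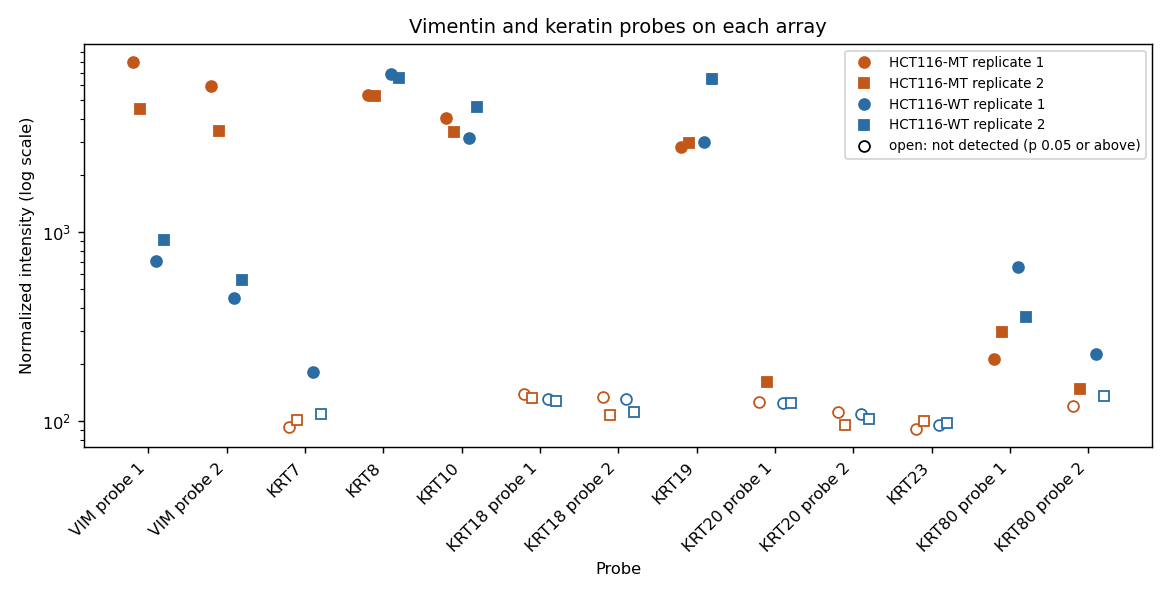
Normalized intensity (log scale) of the 13 vimentin and keratin probes, with HCT116-MT (orange) left of HCT116-WT (blue), circles for replicate 1, squares for replicate 2 and open symbols where a probe was not detected. Both *VIM* probes lie far higher in HCT116-MT, the *KRT8*, *KRT10* and *KRT19* probes lie above 2800 on all arrays, and 6 probes of *KRT7*, *KRT18*, *KRT20* and *KRT23* lie near the background.

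*VIM* had normalized intensities of 7944 and 4522 in HCT116-MT, against 705 and 912 in HCT116-WT. The lower HCT116-MT array was thus well above the higher HCT116-WT array, and the gene was detected on all 4 arrays, HCT116-WT included. On the log2 scale *VIM* averaged 12.55 ± 0.58 in HCT116-MT and 9.65 ± 0.26 in HCT116-WT (SD, n = 2 each). The log2 fold change was 2.90 (95% interval 2.13 to 3.67, SE 0.32), or 7.47-fold, with an adjusted p of 0.0807 with limma. It was the largest fitted rise among the 11875 genes and the 13th smallest p, and 0.0589% of genes differed by as much in either direction.

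The second *VIM* probe (ILMN_2058251, beside ILMN_1782538 for the values above) gave the same picture. It read 5977 and 3454 in HCT116-MT, against 448 and 556 in HCT116-WT, a log2 fold change of 3.19 (SE 0.30, limma adjusted p over probes 0.10), or 9.10-fold. With both probes the first HCT116-MT sample was the higher of its line and the first HCT116-WT sample the lower of its line. Under all 15 other ways of processing and testing, *VIM* passed both thresholds, at log2 fold changes between 2.48 (without HCT116-MT replicate 1) and 3.29 (without HCT116-MT replicate 2), with adjusted p between 0.0279 and 0.648 by the test of each.

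**Figure D2:**
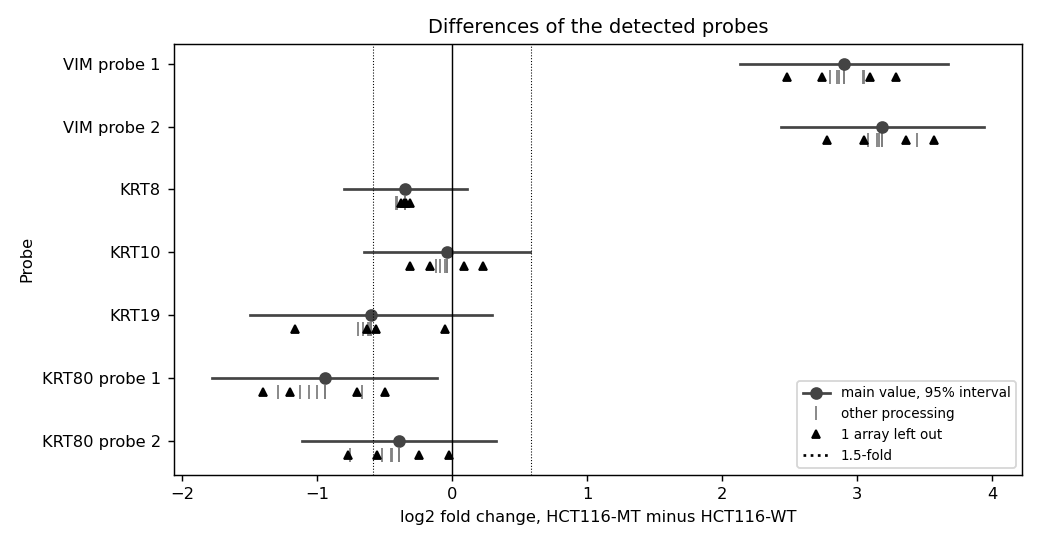
Log2 fold change, HCT116-MT minus HCT116-WT, of the 7 compared probes with 95% intervals (dots and lines), values under other processing (grey ticks) and with 1 array left out (triangles), and 1.5-fold as dotted lines. Every value of both *VIM* probes lies above 2.4, whereas those of *KRT10* fall on both sides of 0 and those of *KRT19* and *KRT80* spread with the array left out.

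Among the keratins of simple epithelia, *KRT8* was far above background in both lines. It read 5342 and 5264 in HCT116-MT, against 6912 and 6575 in HCT116-WT. The replicates lay close together and the lines did not overlap, yet the difference was small, with a log2 fold change of -0.35 (95% interval -0.80 to 0.11, SE 0.19, adjusted p = 0.641 with limma). It stayed between -0.42 and -0.31 under the same 15 and passed the thresholds under none of them. Genome annotation holds 52 pseudogenes named after *KRT8* and 68 after *KRT18*, and the probe sequences were not used here, so how far a probe binds such copies was not tested.

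*KRT18*, the partner chain of *KRT8*, was not detected on any array with either of its 2 probes. The probe ILMN_1730848 read 139 and 132 in HCT116-MT, against 132 and 129 in HCT116-WT, with detection p-values of 0.0714 to 0.0922. The probe ILMN_1803408 read 134 and 108 in HCT116-MT, against 131 and 112 in HCT116-WT, with detection p-values of 0.0870 to 0.362. These probes were not well above background in either line, so no fold change was taken from them. Whether *KRT18* RNA was absent or was missed by these 2 probes was not tested.

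*KRT19*, a type I keratin that lacks most of the tail domain, read 2837 and 2965 in HCT116-MT, against 2998 and 6449 in HCT116-WT. HCT116-WT replicate 2 thus stood above the other arrays, which were nearly level. The log2 fold change was -0.60 (95% interval -1.50 to 0.30, SE 0.37, adjusted p = 0.683 with limma). Without HCT116-WT replicate 1 it was -1.16 and past both thresholds (adjusted p = 0.239), and without HCT116-WT replicate 2 it was -0.05.

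*KRT20*, a keratin of differentiated intestinal epithelium, was near background. Its probe ILMN_1794729 read 126 and 162 in HCT116-MT, against 126 and 125 in HCT116-WT, and was detected on HCT116-MT replicate 2 alone (detection p-value 0.0208). The probe ILMN_2219867 was detected on no array, with readings between 95.8 and 112. A difference between the lines was not detectable at these signals.

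*KRT7* read 93.5 and 101 in HCT116-MT, against 182 and 109.7 in HCT116-WT, and was detected on HCT116-WT replicate 1 alone (detection p-value 0.0117). *KRT23* read 90.9 and 99.8 in HCT116-MT, against 95.2 and 98.5 in HCT116-WT, and was detected on no array. For neither gene could a fold change be given, because no line had a signal above background on both arrays.

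*KRT80* was the keratin that fell. Its probe ILMN_1705814 read 212 and 298 in HCT116-MT, against 654 and 358 in HCT116-WT, and was detected on all 4 arrays. The lines did not overlap, although HCT116-WT replicate 2 lay nearer to the HCT116-MT arrays than to its own replicate. The log2 fold change was -0.94 (95% interval -1.78 to -0.11, SE 0.34, adjusted p = 0.486 with limma), which makes HCT116-MT 1.92-fold lower. It was -0.50 without HCT116-WT replicate 1 and -0.70 without HCT116-MT replicate 1, no longer past the thresholds, and -1.40 without HCT116-WT replicate 2.

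The second *KRT80* probe, ILMN_2366445, was detected on 1 array of each line. It read 120.2 and 148 in HCT116-MT, against 226 and 136 in HCT116-WT, so that the lines overlapped. Its log2 fold change was -0.39 (SE 0.29, adjusted p = 0.755 over probes with limma), at -0.02 without HCT116-WT replicate 1 and at -0.77, past both thresholds, without HCT116-WT replicate 2. With the mean of both probes *KRT80* came to -0.67 and did not pass. HCT116-WT replicate 1 was the brightest array with either probe.

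*KRT10* did not separate the lines. It read 4043 and 3393 in HCT116-MT, against 3153 and 4586 in HCT116-WT, so that both HCT116-MT arrays lay between the HCT116-WT arrays. The log2 fold change was -0.04 (95% interval -0.65 to 0.58, SE 0.25, adjusted p = 0.985 with limma), and it was positive without HCT116-MT replicate 2 (0.09) or HCT116-WT replicate 2 (0.23).

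Most other keratins gave no signal above background. Of 41 further keratin genes on the array, with 47 probes, 4 were detected on at least 2 arrays and none passed the thresholds. *KRT222* read 555 and 601 in HCT116-MT, against 484 and 359 in HCT116-WT (log2 fold change 0.47 ± 0.21 SE, limma adjusted p over probes 0.591). *KRT15*, a basal keratin, read 176 and 146 in HCT116-MT, against 144 and 416 in HCT116-WT, with HCT116-WT replicate 2 apart from the rest as it was for *KRT19*. *KRT24* and *KRT25* had log2 fold changes of -0.08 and 0.02.

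Among the other intermediate filament proteins only *LMNB1* passed the thresholds. Of 14 such genes outside the keratins, 10 were detected, 1 rose and none fell, which with 3.46% of all genes called higher is no result about the list, and their median log2 fold change was 0.17, where that of all genes was 0.00. *LMNB1*, which encodes the nuclear lamin B1, read 915 and 836 in HCT116-MT, against 537 and 454 in HCT116-WT (log2 fold change 0.83 ± 0.20 SE, limma adjusted p 0.386). Without HCT116-MT replicate 1 *LMNB1* no longer passed, at 0.76, nor with no normalization, at 0.66, and without HCT116-WT replicate 2 the count that rose was 2. *NES*, which encodes nestin, a partner of vimentin in filaments, read 869.9 and 932 in HCT116-MT, against 525 and 719 in HCT116-WT and did not pass (log2 fold change 0.55, SE 0.23). It was named after its value was seen.

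Proteins that anchor or regulate intermediate filaments were mostly not called, where 3.85% of all genes were called lower and 3.46% higher. Of 27 on the array 22 were detected, 4 fell and none rose, with a median log2 fold change of -0.03 (1 rose without HCT116-WT replicate 1). *PPL*, the plakin periplakin, which binds keratin and vimentin, read 443 and 281 in HCT116-MT, against 1107 and 1123 in HCT116-WT (log2 fold change -1.66 ± 0.26 SE, limma adjusted p 0.201). *JUP*, plakoglobin of desmosomes and adherens junctions, read 1144 and 766 in HCT116-MT, against 2220.3 and 2491 in HCT116-WT (-1.33, SE 0.25). The plakin *EVPL* (-1.13, SE 0.23) and *SFN* (-0.66, SE 0.24), the 14-3-3 sigma protein, also fell, *SFN* not without HCT116-MT replicate 1 (-0.39) or either HCT116-WT array (-0.66 each).

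At the thresholds of the study, most of the detected epithelial surface and junction genes fell. Of 17 detected, 12 fell and none rose, with a median log2 fold change of -0.88. Of all genes, 3.85% were called lower and 3.46% higher. None of the 17 had a limma adjusted p under 0.05, and the smallest was 0.0807, for *CLDN7*. The count that fell was lower under some other settings. With 1 array left out, the list median lay between -1.067 (without HCT116-WT replicate 2) and -0.705 (without HCT116-WT replicate 1). The largest falls were those of *CLDN7*, a tight junction claudin (-1.98, SE 0.21), *CDH1*, E-cadherin (-1.91, SE 0.23), *AP1M2*, an epithelial sorting adaptor (-1.29, SE 0.23), and *ST14*, the protease matriptase (-1.23, SE 0.27). *KRT8*, *KRT10*, *KRT19* and *KRT80* spanned -0.94 to -0.04, and of these 4 only *KRT80*, by its brighter probe, reached the median of this list. With the mean of the probes of a gene *KRT80* was at -0.67 and did not reach the list median, then -0.87. The 2 sets were not tested against each other.

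Mesenchymal genes other than *VIM* were mostly not called. Of 15 detected, *VCAN*, the matrix proteoglycan versican, rose and *CD44*, a hyaluronan receptor, fell, where 3.46% of all genes were called higher and 3.85% lower, so that these counts are no result about the list. The count that rose was 2 without HCT116-MT replicate 1 or HCT116-WT replicate 1, and the count that fell was 2 without HCT116-MT replicate 2 or HCT116-WT replicate 2. *VCAN* read 1406 and 1811 in HCT116-MT, against 748 and 635 in HCT116-WT (log2 fold change 1.21 ± 0.22 SE, limma adjusted p 0.235), while *CD44* changed by -0.88 (SE 0.28, adjusted p = 0.438 with limma) and no longer passed without HCT116-MT replicate 1 (-0.77) or HCT116-WT replicate 1 (-0.54). The median log2 fold change was -0.16 and changed sign without HCT116-MT replicate 1 (0.01), without HCT116-MT replicate 2 (0.10) and with no detection filter (0.08).

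Of 20 transcription factors and splicing regulators that drive or oppose EMT, 9 were detected, 4 fell and none rose. Among all genes 3.85% were called lower and 3.46% higher. All 4 that fell are known for holding the epithelial state, namely *ELF3*, whose level in HCT116-MT was lower by at least 8.02-fold (limma adjusted p = 0.0221), *GRHL2*, at least 2.75-fold lower, *ESRP1* (-0.87, SE 0.21) and *OVOL2* (-0.60, SE 0.20). The bounds are given because *ELF3* and *GRHL2* were not well above background on either HCT116-MT array, and they set the mean of HCT116-WT against, on each HCT116-MT array, its own signal or the dimmest detected probe's, whichever was brighter. Without HCT116-MT replicate 1 the count was 2, with *ESRP1* (-0.76) and *OVOL2* (-0.69) not past, and *OVOL2* did not pass either without HCT116-MT replicate 2 or HCT116-WT replicate 1 (-0.51 each). Without HCT116-WT replicate 2 the counts were 5 that fell and 1 that rose. The epithelial regulators *GRHL1* (0.01), *KLF4* (-0.39) and *KLF5* (-0.41) did not pass. The EMT drivers *ZEB1*, *ZEB2*, *SNAI1* and *TWIST1* were each detected on fewer than 2 arrays. *SNAI2* read 403 and 297 in HCT116-MT, against 179 and 324 in HCT116-WT, and did not pass. Of the listed drivers only *SNAI2* and *FOXC2* (-0.33, not past) were compared, so most genes that could fall were epithelial regulators.

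Genes of colon differentiation gave little signal in either line. Of 20 on the array 4 were detected, and none passed the thresholds, with a median log2 fold change of -0.02. The brightest were *CA2*, a carbonic anhydrase (0.58), and *KLF4*, a zinc finger factor of differentiated epithelium (-0.39).

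**Figure D3:**
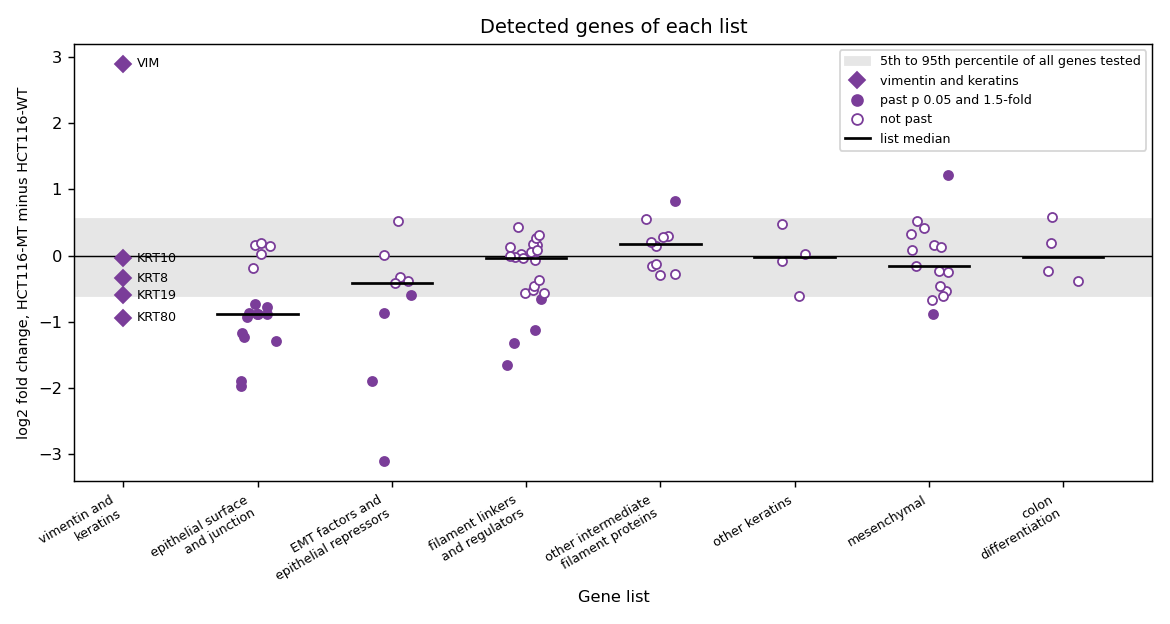
Log2 fold change, HCT116-MT minus HCT116-WT, of the detected genes of each list, filled where past p 0.05 and 1.5-fold, with list medians as black lines and the 5th to 95th percentile of all genes tested (-0.62 to 0.56) in grey; diamonds are the 5 vimentin and keratin genes, whether past or not. *VIM* lies above every other gene drawn, and the epithelial surface and junction genes have the lowest median of the 7 lists drawn (-0.88).

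The genes closest to *VIM* in pattern over the 4 arrays were *SOX4*, *TRIML2*, *FGF9*, *MGMT* and *SFTA1P*. Likeness was measured as the Euclidean distance between log2 values centred on each gene's mean, and came to 0.40, 0.47, 0.65, 0.68 and 0.97. In HCT116-WT *MGMT* was detected on no array and *TRIML2*, *FGF9* and *SFTA1P* on 1 array each, so these 4 entered the comparison largely through HCT116-MT, and their distances, and their order, rest on values at background. Of the 5 genes only *SOX4* was detected on all 4 arrays. *SOX4*, a transcription factor, read 2800.5 and 1657 in HCT116-MT, against 284 and 461 in HCT116-WT. It shared with *VIM* the higher first array in HCT116-MT and the lower first array in HCT116-WT. Such sharing follows from its choice by likeness on these same arrays. *TRIML2* read 989 and 677 in HCT116-MT, against 138 and 145 in HCT116-WT.

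The genes closest to *KRT80* were *TAPBP*, *MUC1* and *PRRG2*, at distances of 0.10, 0.10 and 0.12. *MUC1*, an apical mucin, read 256 and 358 in HCT116-MT, against 726 and 429 in HCT116-WT, and *PRRG2* read 360.1 and 455 in HCT116-MT, against 1072 and 556 in HCT116-WT. *TAPBP*, tapasin of peptide loading, read 759.8 and 1003 in HCT116-MT, against 2361 and 1195 in HCT116-WT. All 3 were highest on HCT116-WT replicate 1, as *KRT80* was, which follows from their choice by likeness on these same arrays.

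**Figure D4:**
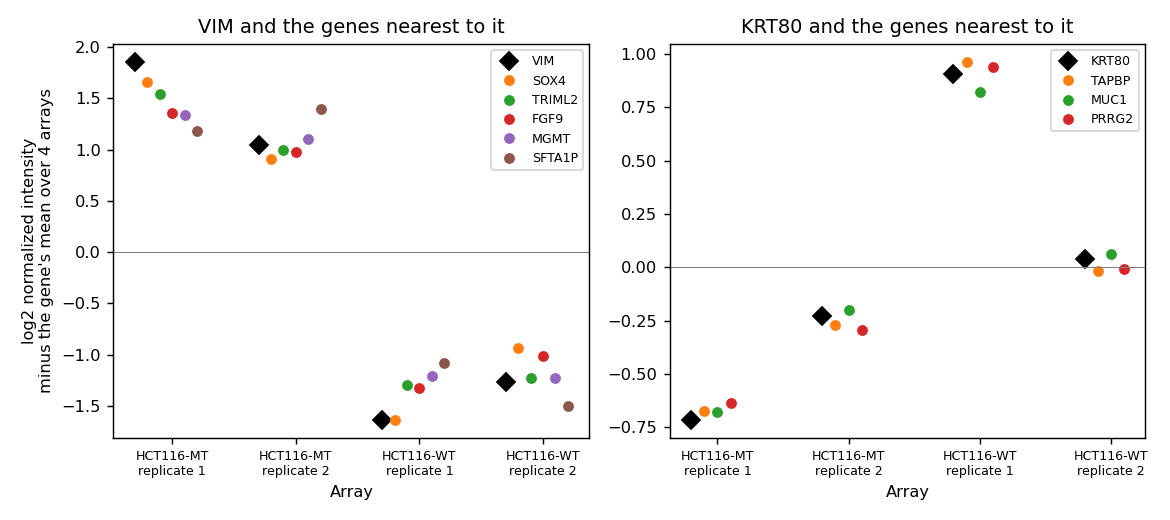
Log2 normalized intensity minus the gene's mean over the 4 arrays, for *VIM* with its 5 nearest genes (left) and *KRT80* with its 3 nearest genes (right), with the HCT116-MT arrays left of the HCT116-WT arrays. The *VIM* group splits into the 2 lines on either side of 0. The *KRT80* group has its peak on HCT116-WT replicate 1 and lies near 0 on HCT116-WT replicate 2. Each group was chosen for likeness over these same 4 arrays.

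The chromosomal neighbours of *VIM* were not called. The 10 nearest genes compared on chromosome 10, 5 on each side, had log2 fold changes between 0.04 and 0.51 (median 0.28) and none passed the thresholds, although all 10 were above 0. Around *KRT8* and *KRT80*, which lie close together on chromosome 12, *ACVRL1* (-0.60), *SPRYD3* (-0.97), *IGFBP6* (-1.31) and *CSAD* (-1.01) fell, where 3.85% of all genes were called lower. The medians of the 10 neighbours were -0.44 and -0.31. Both sets of 10 share most of their genes, and each holds the other keratin, so these medians are not separate readings. The neighbours of *KRT19* on chromosome 17, *KRT10* among them, had a median of -0.02, and of these 10 only *JUP*, named above, passed.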

How the data were processed

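The deposited values, which the authors took from GenomeStudio, are an intensity per probe and array that is not normalized between arrays, with a detection p-value beside each intensity; the build and probe sequences were not used here. Their log2 values were quantile-normalized, as in the study's methods, and the normalized intensity is that value back on the linear scale. The deposited series table was used only as an added alternative, because its probe IDs are displaced. Probes with a detection p under 0.05 on at least 2 of 4 arrays were compared with limma 3.58.1 in R 4.3.3, HCT116-MT minus HCT116-WT, with Benjamini-Hochberg adjustment over 20579 probes or 11875 genes. The brightest such probe stood for a gene. The integrated statistical method that the study cites was not described, so limma was used at its thresholds. Of 47321 probes, 30112 had 1 gene symbol in the platform table, 8 several and 17201 none.

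The genes and lists were chosen with earlier results of these data known. Named by rule were all 9 genes, *CTNNB1* and up to 4 genes past the thresholds per list (the 2 brightest where none passed). The rule also took the other detected keratins, the 5 nearest genes in pattern to *VIM* and the 3 nearest to *KRT80*. Some genes were named outside it with their values known, among them *NES*, *SNAI2*, *FOXC2*, *GRHL1*, *KLF5*, *CDX2* and the neighbours on chromosome 12. Alternatives were median scaling, cyclic loess, no normalization, neqc background correction (offset 16), no detection filter, a detection p under 0.01, detection on both arrays of a line, a mean-variance trend, Student's t-test, the replicate number as a block, the mean of the probes of a gene, and each array left out in turn. Only the fit was run on simulated arrays, with known fold changes added to values already normalized and filtered. Normalization, the detection filter and the choice of probe were not tested in this way. Chip position was not given. The number of arrays limits the precision. Figures were drawn with matplotlib 3.10.9.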

Additional observations from a re-analysis of the deposited data

How the results depend on the processing

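At the thresholds of the study 648 of all compared probes were called higher in HCT116-MT and 637 lower, and 0 and 2 at an adjusted p under 0.05. The counts at the thresholds were 401 higher with median scaling, 221 higher and 983 lower with no normalization, and 254 higher and 231 lower with Student's t-test; with 1 array left out they were 394 to 1150 higher and 395 to 1262 lower. The split between higher and lower moves with the scaling, and the median log2 fold change of all compared probes was 0.02 with quantile normalization, -0.03 with median scaling, -0.01 with cyclic loess and -0.10 with none. At an adjusted p under 0.05 the counts were 1 higher and 6 lower with cyclic loess and with a detection p under 0.01, 3 and 7 with neqc, 7 and 12 with a mean-variance trend, 1 and 1 with Student's t-test, 1 lower with detection on both arrays of a line, and 0 to 7 higher and 0 to 46 lower with 1 array left out. The replicate numbers share only a number (r = 0.0537 between the replicate differences of the 2 lines): with a replicate block 647 probes were higher and 771 lower at the thresholds, and 0 lower at an adjusted p under 0.05.

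Of the 9 genes, 1 rose (*VIM*) under every setting applied to the non-normalized table. The count that fell was 1, but 0 with Student's t-test and with the mean of the probes of a gene, and 0 to 1 with 1 array left out, where it was 0 without HCT116-MT replicate 1 and was *KRT19* in place of *KRT80* without HCT116-WT replicate 1. A line left with 1 array is assumed to vary like the other. With Student's t-test 6 of the epithelial surface and junction genes and 0 of the mesenchymal genes fell, and *CD44*, *ST14* and *SFN* did not pass, *SFN* not with neqc either. With the replicate block 2 mesenchymal genes fell. With neqc 1 of the other intermediate filament proteins fell, and without HCT116-WT replicate 1, 1 of the other keratins rose and 1 fell and 1 colon differentiation gene rose. The cause of these moves was not tested. Signals near background limit *KRT7*, *KRT18*, *KRT20*, *KRT23* and the second *KRT80* probe.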

Other observations

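The deposited series table gave another picture of *VIM* alone among these genes. Of 47319 shared probe IDs, 26122 (55.2%) carried other intensities in that table than in the non-normalized one. Of the 13 vimentin and keratin probes 11 had the same intensities in both, and the 2 that differed were both *VIM* probes. In the series table ILMN_1782538 read 105 and 88.5 in HCT116-MT, against 105 and 82.0 in HCT116-WT, and ILMN_2058251 read 99.5 and 93.7 in HCT116-MT, against 87.8 and 87.5 in HCT116-WT. The log2 fold changes there were 0.11 and 0.19, not past the thresholds; this alternative was chosen after seeing the data. Over 4316 genes with exactly 2 probes, log2 intensities of the 2 probes of a gene correlated at r = 0.530 in the non-normalized table and at r = 0.366 in the series table (HCT116-WT replicate 1, across genes, which are not independent replicates).

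*CD68*, a lysosomal protein listed among the leukocyte markers, accounted for much of the difference in the sum of that list. It read 793 and 1093 in HCT116-MT, against 2314 and 3479 in HCT116-WT (log2 fold change -1.61 ± 0.28 SE, limma adjusted p 0.231).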
